A study of Homo sapiens with 8 samples.

Results

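The 9 genes described here encode enzymes and receptors of the proximal tubule brush border, and were measured in the renal cell carcinoma (RCC) line 786-O with and without von Hippel-Lindau (VHL) expression. They are the peptidases ANPEP, ENPEP, MME, DPP4, XPNPEP2 and MEP1A, the phosphatase ALPL, and the endocytic receptors CUBN and LRP2. These 9 genes, of 18417 represented on the array, were taken as the transcript clusters (sets of probes designed for 1 transcript region) to which the array annotation gives a single symbol among these names. Each gene had 1 such cluster, so no choice between clusters was needed.

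The study asked how VHL and oxygen each change gene expression in RCC cells. The 786-O line was derived from a clear cell RCC and lacks functional VHL. VHL- cells were the untransfected line, labelled as having no transfection, and VHL+ cells were the same line carrying a vector for overexpression of VHL, which the methods describe as stable transfectants. Incubation was 24 h, in normal oxygen or in hypoxia (1% O2 in the methods), and total RNA of 2 biological replicates for each of the 4 groups was hybridized to 8 arrays. VHL- cells were not vector controls, so that transfection and selection cannot be told apart from VHL itself, and all values come from 1 cell line.

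The brush border is the dense layer of microvilli on the luminal face of the proximal tubule cell, the cell type from which clear cell RCC is thought to arise. Its ectopeptidases cut filtered peptides, angiotensins among them, into amino acids and dipeptides that the cell takes up, while its large receptors take filtered proteins into the cell by endocytosis. In degrading the α subunits of the hypoxia-inducible factors (HIF) under normoxia, VHL links oxygen to transcription, and cells without VHL keep HIFα at normal oxygen.

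Values are log2 signals, so that a difference of 1 is a 2-fold change. Array medians over all clusters ran from 6.60 to 6.91, and replicates correlated with r from 0.991 to 0.994 across clusters, which are not independent replicates. The VHL transcript was higher in VHL+ cells by 0.52 under normoxia and 0.75 under hypoxia on the log2 scale (limma adjusted p 0.0398 and 0.00211). Under normoxia that call was lost without any 1 of the 4 normoxia arrays or the 2 arrays of VHL+ cells under hypoxia (highest adjusted p 0.436), and under hypoxia without either of the latter (0.0787). With array medians centred the adjusted p was 0.0549 and 0.0506, so that the check of the label by the transcript is a weak one. By Western blot, the paper detected VHL protein in VHL transfectants only. It also reported HIF2α protein as degraded in them under normoxia and as stabilized under hypoxia. The transcripts of HIFα subunits do not measure that protein and are no check of HIF activity. Of the transcripts of HIFα subunits, HIF1A was lower in VHL+ cells, with differences of -1.95 and -2.02 (limma adjusted p 4.82e-08 and 4.56e-08). EPAS1 differed by -0.77 under normoxia (limma adjusted p 0.0146), a call lost after quantile normalization (0.0520), and was not called under hypoxia (0.252). PAX8, a transcription factor of the kidney epithelium, lay between 10.35 and 10.71 and the keratin KRT18 between 10.35 and 10.75, above the median on all 8 arrays. Both belong to a list of 6 measured renal carcinoma markers, of which 0 were below the median on VHL- arrays. On each VHL+ array 1 of them, EPCAM, was below it. Of 5 measured nephron transcription factors, PAX8 among them, 1 or 2 were below the median of an array. PTPRC, the pan-leukocyte marker, lay between 5.52 and 5.80, and the 9 measured leukocyte and endothelial markers were all below the median on every array, with a mean over the list from 5.96 to 6.28 per array, and none was called in either comparison of VHL, the smallest p being that of CD14 (-0.06 and 0.21, limma adjusted p 0.9999 and 0.441). Of 19 proximal tubule transporters, 14 to 17 were below the median of an array. Of the 9 brush border genes, 5 were themselves below the median on all 8 arrays, and 7 were below it on each VHL+ array. Of 8 other measured brush border enzymes, 6 or 7 were below the median of an array. A signal above the median does not by itself show a brush border, so the name is that of the gene set and not a finding about these cells. No background signal was measured, so a gene below the median may or may not be expressed, and a fold change that ends there may be a lower bound. In bulk RNA, fewer cells with a transcript and less of it per cell cannot be told apart.

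Of the 9 genes, 3 were called in VHL+ vs. VHL- cells under normoxia, with ENPEP up-regulated and ANPEP and MME down-regulated (limma, adjusted p under 0.05 over all 33297 clusters). In that comparison 4.77% of all clusters were called, 2.07% as higher and 2.69% as lower. Under hypoxia ENPEP was again up-regulated and ANPEP and MME down-regulated, beside 11.6% of all clusters called, 10.3% as higher and 1.31% as lower. No array is shared by the 2 comparisons, but they are not independent repeats. Deviations of replicates of equal number correlated between normoxia and hypoxia of the same cells (r 0.605 for VHL- and 0.305 for VHL+). The fit also pooled the spread over all groups, so a call under normoxia could depend on the hypoxia arrays and the reverse. The median over the 9 genes was -0.06 under normoxia and 0.13 under hypoxia on the log2 scale, next to -0.04 and 0.16 over all clusters. The median over all clusters moved from 0.16 to 0.00 after quantile normalization of the arrays under hypoxia, and the share of calls that were higher moved from 88.7% to 50.2%. Relative to the median cluster, the differences under hypoxia were 1.98 for ENPEP, -3.18 for ANPEP and -1.15 for MME on the log2 scale.

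**Figure D1:**
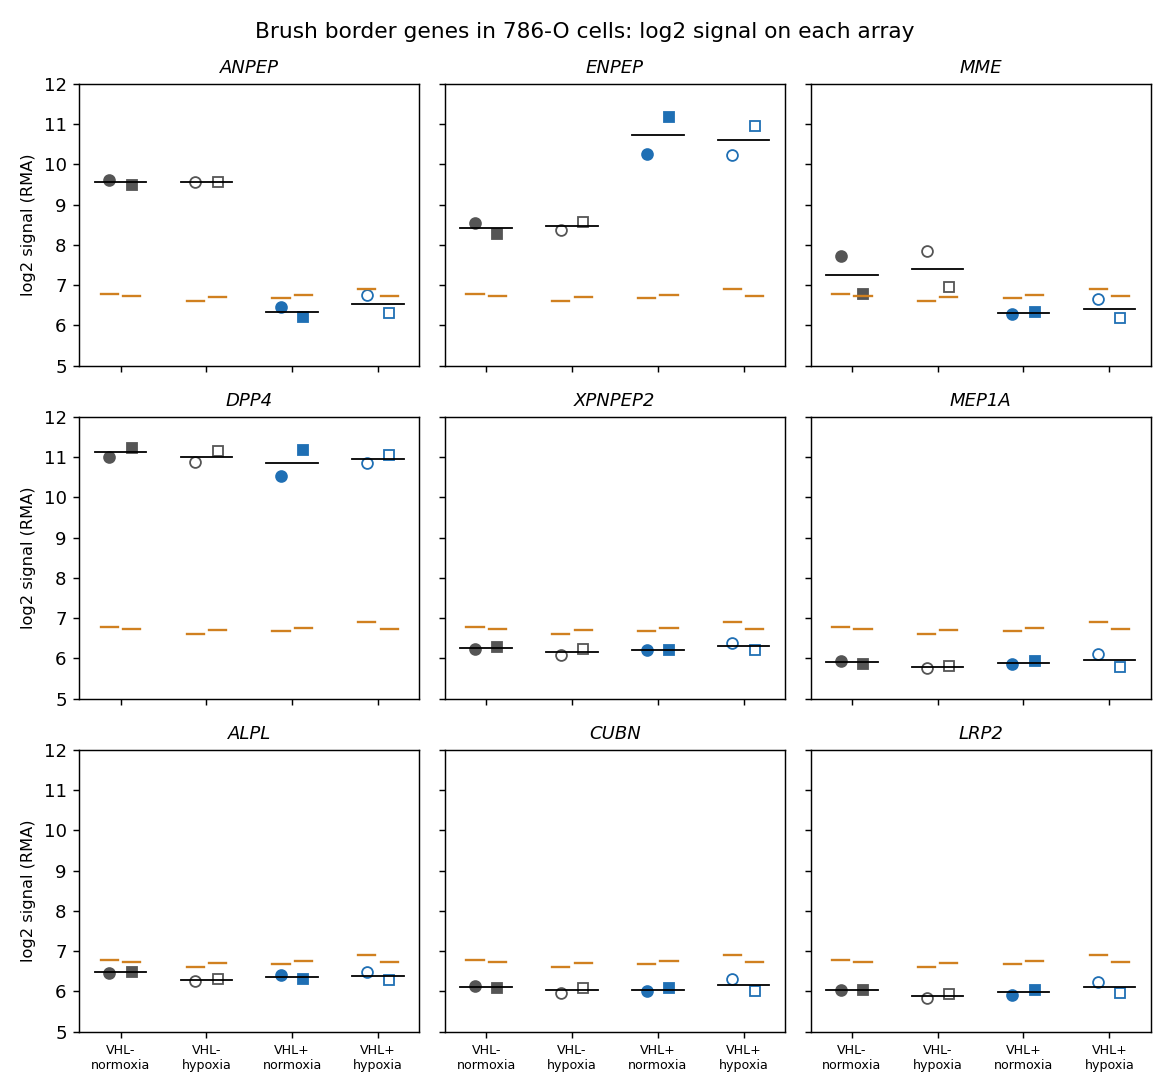
Log2 signal of the 9 brush border genes on each of the 8 arrays, 1 panel per gene, with circles for replicate 1, squares for replicate 2, filled symbols for normoxia, open symbols for hypoxia, grey for VHL- and blue for VHL+ cells. Black lines are group means and orange dashes the median of that array over all clusters. ANPEP and MME drop below the median in VHL+ cells, ENPEP is higher in them, DPP4 stays above the median throughout, and XPNPEP2, MEP1A, ALPL, CUBN and LRP2 lie below it on every array.

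ANPEP is the alanyl (membrane) aminopeptidase CD13, which removes neutral amino acids from the N terminus of peptides and cleaves angiotensin III to angiotensin IV. VHL- cells had log2 signals of 9.61 and 9.49 in normoxia and of 9.55 and 9.56 in hypoxia. VHL+ cells had 6.46 and 6.20 in normoxia and 6.76 and 6.30 in hypoxia. All 4 arrays of VHL- cells were far above all 4 arrays of VHL+ cells, and the VHL+ arrays all lay below the median of their array. The difference of VHL+ and VHL- cells was -3.22 under normoxia (SE 0.16, 95% interval -3.55 to -2.89, limma adjusted p 3.62e-10). It was -3.03 under hypoxia (95% interval -3.36 to -2.70, limma adjusted p 1.08e-09), a level 8.16-fold lower in VHL+ cells and 9.31-fold lower under normoxia. Among genes that were lower it ranked 9th under normoxia and 6th under hypoxia by the size of the log2 difference. Leaving out any single array kept it between -3.35 and -3.09 under normoxia and between -3.26 and -2.80 under hypoxia.

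ANPEP has 2 annotated starts in the RefSeq table of promoters, and the 250 bases before each are printed, since it had the largest difference of the 9 genes. A pair of motifs was searched on both strands: the core of the HIF response element, ACGTG or GCGTG, and GTTAAT, a half-site of the tubule and liver factor HNF1, whose letters share no overlap. The bases in capitals are matches, in the build GRCh38.p14 and on the minus strand as the gene reads.
ANPEP start at chr15:89806629-89806878: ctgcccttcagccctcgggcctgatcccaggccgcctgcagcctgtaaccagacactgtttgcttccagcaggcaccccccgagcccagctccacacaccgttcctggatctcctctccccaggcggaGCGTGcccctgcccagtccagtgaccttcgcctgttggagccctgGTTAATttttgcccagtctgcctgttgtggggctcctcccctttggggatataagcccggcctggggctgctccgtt
ANPEP start at chr15:89814853-89815102: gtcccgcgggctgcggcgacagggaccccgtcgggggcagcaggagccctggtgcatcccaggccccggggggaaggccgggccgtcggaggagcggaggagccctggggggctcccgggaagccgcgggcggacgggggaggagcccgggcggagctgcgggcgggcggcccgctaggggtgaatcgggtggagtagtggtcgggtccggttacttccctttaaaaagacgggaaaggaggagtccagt
In the first window GCGTG lies at -122 to -118 and GTTAAT at -77 to -72, counted from the start, and the second window holds no match. A core of the HIF element was present in 43.2% and the HNF1 half-site in 6.23% of 35116 such windows of all genes.

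ENPEP, glutamyl aminopeptidase, removes the N-terminal aspartate of angiotensin II to give angiotensin III. VHL- cells had log2 signals of 8.55 and 8.28 in normoxia and of 8.36 and 8.56 in hypoxia. VHL+ cells had 10.25 and 11.18 in normoxia and 10.24 and 10.95 in hypoxia. The groups of VHL- and VHL+ cells did not overlap, and replicate 2 of VHL+ cells was above replicate 1 under both oxygen conditions, by 0.93 and 0.72. The increase was 2.30 under normoxia (SE 0.24, 95% interval 1.79 to 2.81, limma adjusted p 8.51e-06) and 2.13 under hypoxia (95% interval 1.63 to 2.64, limma adjusted p 1.80e-05). These were 4.92-fold and 4.39-fold higher levels, ranks 8 and 19 among genes that were higher. The call under hypoxia was lost without VHL+ hypoxia replicate 2 (difference 1.77, limma adjusted p 0.0537).

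The window before the single annotated start of ENPEP, on the plus strand, is printed for comparison because the gene moved the other way from ANPEP. It holds no match to either motif.
ENPEP start at chr4:110475905-110476154: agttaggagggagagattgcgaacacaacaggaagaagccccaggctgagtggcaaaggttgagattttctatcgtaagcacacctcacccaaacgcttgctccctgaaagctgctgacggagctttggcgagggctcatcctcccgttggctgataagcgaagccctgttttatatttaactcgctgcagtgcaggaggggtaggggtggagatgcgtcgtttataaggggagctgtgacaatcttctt
Among the 14 windows of 8 of the genes, 5 held a HIF core, with 1 window each of ALPL, ANPEP, DPP4, LRP2 and MME, and the HNF1 half-site was in 1 window. A match or its absence in these letters is a description of the window.

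MME, neprilysin or CD10, is a zinc endopeptidase that degrades small peptides and is used as a marker of the proximal tubule. VHL- cells had log2 signals of 7.71 and 6.77 in normoxia and of 7.85 and 6.95 in hypoxia. VHL+ cells had 6.28 and 6.33 in normoxia and 6.64 and 6.17 in hypoxia. VHL- replicate 1 was above replicate 2 by 0.94 and 0.89, about as large as the difference of the groups, though no array of VHL+ cells reached the lowest array of VHL- cells. All 4 VHL+ arrays lay below their array's median. The difference was -0.94 under normoxia (SE 0.26, 95% interval -1.49 to -0.38, limma adjusted p 0.0484) and -0.99 under hypoxia (95% interval -1.55 to -0.44, limma adjusted p 0.0197). After quantile normalization the difference was -0.93 and -1.18 with an adjusted p of 0.273 and 0.158, so that the call was lost while the size of the difference was kept. Without VHL- normoxia replicate 1 the difference under normoxia was -0.47 (adjusted p 0.327), and without VHL- hypoxia replicate 1 that under hypoxia was -0.55 (adjusted p 0.0965). The call was also lost without VHL+ hypoxia replicate 1 or replicate 2, with the difference under normoxia still -0.94 and an adjusted p of 0.330 for each. Under hypoxia the difference was then -1.23 and -0.76, with an adjusted p of 0.252 and 0.241.

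DPP4, or CD26, is a serine peptidase that clips dipeptides from chemokines and incretins. VHL- cells had log2 signals of 11.00 and 11.22 in normoxia and of 10.88 and 11.14 in hypoxia. VHL+ cells had 10.54 and 11.17 in normoxia and 10.86 and 11.06 in hypoxia. The groups overlapped, and in each of the 4 groups replicate 2 was the higher one, by 0.20 to 0.63. The difference of VHL+ and VHL- cells was -0.26 under normoxia (95% interval -0.64 to 0.12, limma adjusted p 0.720) and -0.05 under hypoxia (-0.43 to 0.32, limma adjusted p 0.852).

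The remaining 5 genes had a low signal on all 8 arrays. XPNPEP2, which cleaves N-terminal residues next to proline, lay between 6.09 and 6.39. MEP1A, the α subunit of the metalloprotease meprin, lay between 5.77 and 6.12. ALPL, the tissue-nonspecific alkaline phosphatase, lay between 6.27 and 6.50. CUBN and LRP2, cubilin and megalin, which together retrieve filtered proteins, lay between 5.97 and 6.31 and between 5.83 and 6.24. None of these 5 was called in VHL+ vs. VHL- cells, with differences from -0.11 for ALPL under normoxia to 0.21 for LRP2 under hypoxia (95% interval -0.08 to 0.51, limma adjusted p 0.379). None of the 5 had a level above the median in any group.

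**Figure D2:**
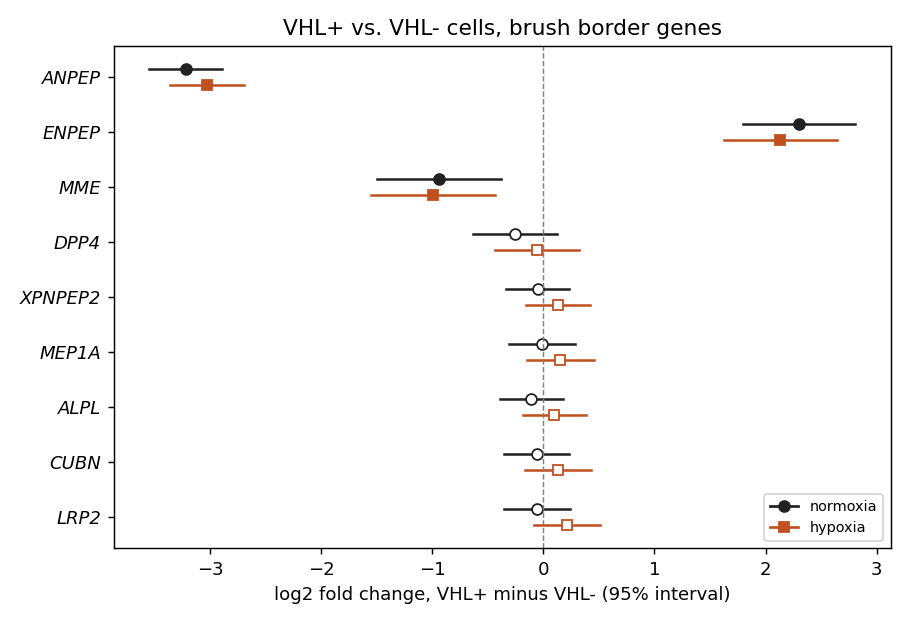
Difference of VHL+ and VHL- cells (log2 fold change) for the 9 brush border genes, in normoxia and in hypoxia, with 95% intervals; filled symbols are called (limma adjusted p under 0.05) and open symbols not called. ANPEP at -3.22 and -3.03 and ENPEP at 2.30 and 2.13 stand apart from the rest, MME is near -0.94 and -0.99, and the intervals of the other 6 genes span 0.

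None of the 9 genes was called in hypoxia vs. normoxia. In VHL- cells the hypoxia vs. normoxia differences ran from -0.19 for ALPL to 0.16 for MME (limma, smallest adjusted p 0.806, 0 at an unadjusted p under 0.05), where 0.0661% of all clusters were called. In VHL+ cells they ran from -0.12 for ENPEP to 0.20 for ANPEP (limma, smallest adjusted p 0.940, 0 at an unadjusted p under 0.05), where 0.153% of clusters were called. The one-way test of the methods was run on each pair of groups. At an unadjusted p under 0.05 it gave 1 gene in VHL- cells, ALPL, and 0 in VHL+ cells. No share over all clusters is given here for that test and threshold, so these counts have no background beside them. The ALPL difference of -0.19 stood beside a median of -0.12 over all clusters, and was -0.07 relative to the median cluster. For ANPEP the 95% intervals were -0.32 to 0.34 in VHL- and -0.13 to 0.53 in VHL+ cells. For ENPEP they were -0.46 to 0.55 and -0.63 to 0.39. A change of 2-fold by hypoxia lay outside the 95% interval of each of the 9 genes in both cell types.

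The size of the VHL difference was compared between oxygen conditions by the interaction of VHL and hypoxia, which shares arrays with all the comparisons above. None of the 9 genes was called (limma, smallest adjusted p 0.651, 0 at an unadjusted p under 0.05; 0 by the one-way test of the methods), beside 0.00601% of all clusters. The estimate was 0.19 for ANPEP (95% interval -0.28 to 0.66), -0.17 for ENPEP (-0.88 to 0.55) and -0.05 for MME (-0.84 to 0.73) on the log2 scale, and the largest was 0.27 for LRP2. The median over all clusters was 0.21. These intervals allow differences of up to 0.88 in size for ENPEP.

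**Figure D3:**
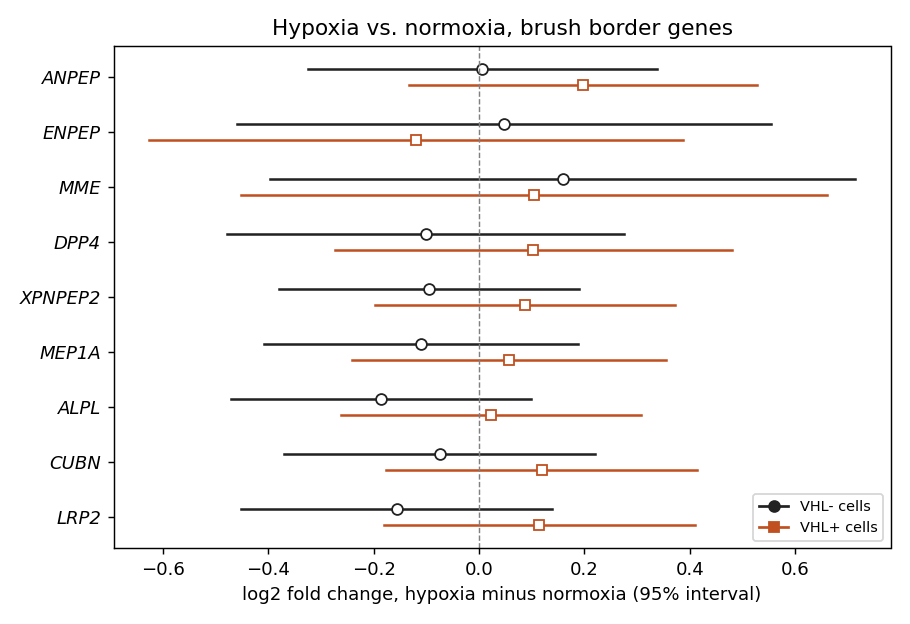
Log2 fold change of the 9 brush border genes in hypoxia vs. normoxia, with 95% intervals, circles for VHL- and squares for VHL+ cells; open symbols are not called. Every interval spans 0, and the point estimates lie between -0.19 and 0.20.

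Other genes of the tubule apical membrane and the relatives of the 9 genes were described from lists, each with its median beside the -0.04 under normoxia and 0.16 under hypoxia of all clusters. In all, 83 measured genes stood in 8 lists, of which 8 were called under normoxia (5 higher, 3 lower; 9.64%) and 18 under hypoxia (17 higher, 1 lower; 21.7%). Over all clusters these shares were 4.77% and 11.6%, and 88.7% of the calls under hypoxia were higher. After quantile normalization 4 and 6 of the 83 were called (4.82% and 7.23%), next to 5.42% and 5.50% of all clusters, so that the share under normoxia was then about that of all clusters. Without VHL+ hypoxia replicate 1, only NHERF1 of the 83 was called under normoxia and under hypoxia, and without replicate 2 the counts were 1 and 2. In hypoxia vs. normoxia, and in the interaction, none was called with limma. At an unadjusted p under 0.05 there were 1 in VHL- cells, 6 in VHL+ cells and 3 for the interaction, next to 1765, 2052 and 1869 of all 33297 clusters. With the replicate number as a block 1 of the 83 was called as higher by hypoxia in VHL+ cells, and leaving out single arrays gave up to 2 calls in VHL- cells and up to 1 in VHL+ cells and for the interaction.

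Among 8 other brush border enzymes (median -0.06 under normoxia and 0.08 under hypoxia), NT5E alone was called. It encodes the ecto-5'-nucleotidase CD73 that makes adenosine from AMP. VHL- cells had log2 signals of 10.52 and 9.57 in normoxia and of 10.94 and 9.68 in hypoxia. VHL+ cells had 8.22 and 8.67 in normoxia and 9.12 and 8.76 in hypoxia. The groups did not overlap. NT5E was lower in VHL+ cells, with a difference of -1.60 under normoxia (limma adjusted p 0.00387) and of -1.36 under hypoxia (adjusted p 0.00755), which became adjusted p 0.123 and 0.122 after quantile normalization and was lost in both without VHL+ hypoxia replicate 1 or 2.

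Of 9 genes for microvillus structure (median 0.06 and 0.23), 3 were higher in VHL+ cells under both oxygen conditions and 0 lower, beside 2.07% and 10.3% of all clusters higher. After quantile normalization 2 were higher under each. NHERF1, a scaffold that holds transporters to ezrin, had log2 signals of 9.08 and 8.59 in normoxia and of 8.84 and 8.52 in hypoxia in VHL- cells. VHL+ cells had 9.97 and 10.22 in normoxia and 9.99 and 10.15 in hypoxia. All 4 VHL+ arrays lay above all 4 VHL- arrays. The difference was 1.26 (limma adjusted p 0.000124) and 1.39 (adjusted p 3.53e-05), called after quantile normalization too (adjusted p 0.0254 and 0.0354) and with any single array left out. MYO6, a minus-end-directed myosin of the microvillus base, differed by 0.70 and 0.76, and PLS1, an actin-bundling plastin, by 0.87 and 1.02, and both calls were lost without VHL+ hypoxia replicate 1 or 2 and, under normoxia, without VHL+ normoxia replicate 2. MYO6 was also lost under normoxia without VHL- normoxia replicate 1. PLS1 was not called after quantile normalization.

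Of 6 partners of the receptors and endocytic machinery (median 0.24 and 0.43), none was called under normoxia, while OCRL, a phosphoinositide phosphatase of endosomes, and RAB11A, a GTPase of recycling endosomes, were higher under hypoxia by 0.65 and 0.47 (limma adjusted p 0.00898 and 0.0311). Neither was called after quantile normalization. Of 19 transporters (median -0.03 and 0.17), SLC17A3, an organic anion and urate exporter, was higher by 1.10 and 1.18 (limma adjusted p 0.0330 and 0.0122), and SLC4A4, the basolateral sodium bicarbonate cotransporter, by 0.95 under hypoxia (adjusted p 0.0176). Neither was called after quantile normalization. Of 5 nephron transcription factors (median -0.08 and 0.14), none was called under normoxia. HNF4G and PAX2 were higher by 0.91 and 0.60 under hypoxia (limma adjusted p 0.000672 and 0.0245), with HNF4G called after quantile normalization. With array medians centred HNF4G was not called (limma adjusted p 0.0514), and its call was lost without VHL+ hypoxia replicate 1 or 2. Of 6 renal carcinoma markers, EPCAM, an epithelial adhesion molecule, was lower, with differences of -1.08 and -0.77 (limma adjusted p 0.000305 and 0.00386), and lay below the array median on all 4 VHL+ arrays. The call of EPCAM under hypoxia was lost without VHL+ hypoxia replicate 1 or 2 (highest adjusted p 0.111). NNMT, nicotinamide N-methyltransferase, was higher by 0.88 under hypoxia. Of 6 markers of other nephron cells, none was called under normoxia and PODXL, the podocyte sialomucin, was higher by 0.69 under hypoxia. Neither NNMT nor PODXL was called after quantile normalization or without VHL+ hypoxia replicate 1. With array medians centred PODXL was called under hypoxia (adjusted p 0.0313), and 1 of the 6 markers of other nephron cells was higher under normoxia too.

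Among 7 relatives of ANPEP and ENPEP in the M1 aminopeptidase family (median -0.02 and 0.14), NPEPPS, the puromycin-sensitive cytosolic aminopeptidase, was lower, with a difference of -0.67, under normoxia (limma adjusted p 0.0117). RNPEPL1 and RNPEP, aminopeptidase B, were higher by 0.72 and 0.67 under hypoxia. After quantile normalization neither was called, and NPEPPS was then lower under hypoxia too (-0.56, limma adjusted p 0.0234). With array medians centred, 0 of the 7 were called under hypoxia. Among 23 relatives of the other members (median -0.0041 and 0.23), LRP6, a Wnt coreceptor, was higher by 0.57 and 0.91, VLDLR, a lipoprotein receptor, was lower under normoxia, with a difference of -0.77, and DPP9 and LRP4 were higher by 0.64 and 0.61 under hypoxia. After quantile normalization LRP6 kept its calls, and VLDLR, DPP9 and LRP4 were not called. With array medians centred LRP6 was called under hypoxia (limma adjusted p 0.0325) and not under normoxia (0.0546). Both calls of LRP6 were lost without VHL+ hypoxia replicate 1 or 2. PHEX, beyond the number of genes named per list, was higher by 0.44 under hypoxia, with signals of 6.19 to 6.80, below the median on all 8 arrays. Its group means were 6.53 in normoxia and 6.23 in hypoxia in VHL- cells, and 6.54 and 6.67 in VHL+ cells. Of 7 genes for angiotensin peptides and receptors (median 0.06 and 0.23), AGT, angiotensinogen, and CTSA, cathepsin A, were higher under hypoxia by 0.58 and 0.46, and neither was called after quantile normalization.

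**Figure D4:**
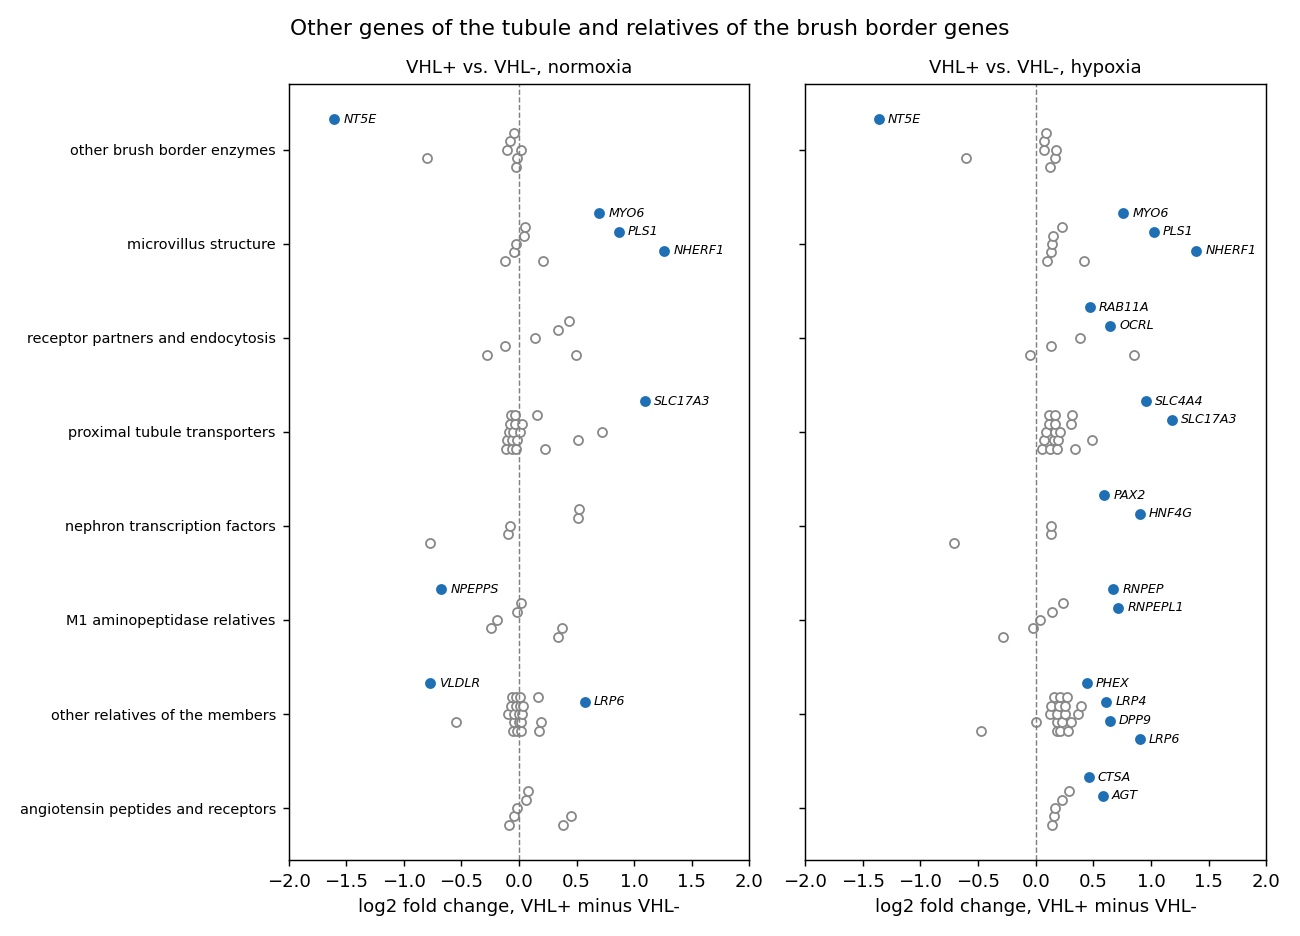
Difference of VHL+ and VHL- cells (log2 fold change) for the measured genes of 8 lists, in normoxia and in hypoxia, 1 row per list and 1 point per gene. Filled blue points with names are called (limma adjusted p under 0.05) and open points not called; of 83 genes 8 are called under normoxia and 18 under hypoxia, 17 of these to the right of 0.

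Over the 8 arrays, the genes with the pattern most like ANPEP, measured by the root mean square difference of signals centred on each gene's mean among 18416 genes, were KRT19 (0.140), COXFA4L3 (0.279) and MMP2 (0.302). Nearest to ENPEP were NLGN1 (0.255), PLXDC2 (0.295) and CRYAB (0.306), and nearest to MME were PTGDS (0.0945), TBX3 (0.0969) and SLC37A2 (0.138). The difference of VHL+ and VHL- cells in normoxia and hypoxia was -3.12 and -2.78 for KRT19, a keratin. It was 2.14 and 1.89 for NLGN1, a neuroligin, and -1.14 and -0.89 for TBX3, a T-box transcription factor. These are descriptions of likeness over 8 arrays with no test.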

How the data were processed

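The authors hybridized total RNA to Affymetrix Human GeneChip 1.0 ST arrays and normalized them by RMA in Partek (version not given in the sources used here), and deposited log2 signals, with 1 value for each transcript cluster. All value columns were matched to samples. Of 33297 clusters, 19460 carried 1 symbol, 1754 several and 12083 none in GEO's platform annotation. Groups and replicate numbers came from the sample labels.

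The values were fitted without further transformation in limma 3.58.1 (R 4.3.3), with 1 mean per group over all 8 arrays (4 residual and 14.0 prior degrees of freedom). P-values were adjusted by Benjamini and Hochberg over all clusters, with a threshold of 0.05. This replaced the one-way test of the methods, which was kept as an alternative. That alternative was run for each comparison on its own groups alone and is not a repeat of the authors' own fit. The p-values measure the spread between the deposited samples. Precision is limited by the number of arrays. On simulated data (VHL under normoxia, 33297 clusters, 200 changed) the fit recovered 75% of changes of 1 and 99% of changes of 2 on the log2 scale, with 12 false calls. The simulated noise was independent between arrays, with the measured spreads shuffled over clusters. It held no shift of a whole array and no deviation shared by replicates of equal number, so these rates need not hold for the real arrays.

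The 9 genes and the lists were chosen with earlier results of these data known. Named from each list were the called genes, at most the 4 with the largest change, or, with no call, the gene of smallest p. PAX8, KRT18, PTPRC and PHEX were named outside this rule, after their values were seen. Some symbols of the lists had no cluster with 1 symbol and were not analysed here. Alternatives were quantile normalization, median centring, the compared groups alone, a variance trend with robust estimation, a block for the replicate number, removal of dim clusters, the mean of a gene's clusters, clusters with 1 symbol only, a minimum 2-fold change, the test of the methods, and each array left out. Promoter windows came from RefSeq (GRCh38.p14), found for 8 of the 9 genes.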

Additional observations from a re-analysis of the deposited data

How the results depend on the processing

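ANPEP was called in VHL+ vs. VHL- cells in 18 of 19 alternatives under normoxia and 17 of 19 under hypoxia, ENPEP in 17 and 16, and MME in 6 and 9. No difference reversed. Of the 9 genes, 3 were called under each oxygen condition. The one-way test of the methods, run on the compared groups alone, called 1 under normoxia and 0 under hypoxia at an unadjusted p under 0.005. Over all clusters, 288 and 400 of 33297 passed that threshold. With adjustment the one-way test called 0 and 0 of the 9 genes. Leaving out 1 array at a time gave 2 to 3 called genes under normoxia and 1 to 3 under hypoxia, the lowest of them without VHL+ hypoxia replicate 2. The hypoxia comparisons and the interaction called 0 of the 9 genes in each alternative run; a fit to the compared groups alone does not exist for the interaction. With the replicate number as a block, 3 genes were called under normoxia and 3 under hypoxia. No share over all clusters is given here for the block or the left-out arrays, so these counts have no background beside them. The numbers were not taken as pairing the samples, since deviations of equal numbers correlated between groups from 0.0503 to 0.605. The highest values were those between normoxia and hypoxia of the same cells, 0.605 for VHL- and 0.305 for VHL+. The block was a single term shared by all groups, so no alternative paired the samples within a cell type. The intervals given for hypoxia vs. normoxia are unpaired. Each of the 9 genes has 1 cluster, so the mean of clusters changed only the clusters over which p was adjusted.

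Of the 83 listed genes, 8 were called under normoxia and 18 under hypoxia. After quantile normalization 4 and 6 were called (4.82% and 7.23%), next to 5.42% and 5.50% of all clusters. With array medians centred 2 and 2 were called (2.41% each), a smaller share than the 3.74% and 4.27% of all clusters. With the replicate block 16 and 23 were called. For the block and the left-out arrays no share over all clusters is given here. Leaving out 1 array gave 1 to 15 under normoxia and 1 to 24 under hypoxia, the lowest without VHL+ hypoxia replicate 1 or 2. In hypoxia vs. normoxia and the interaction, where none of the 83 was called, the replicate block called 1 in VHL+ cells, and leaving out 1 array gave 0 to 2 in VHL- cells and 0 to 1 in VHL+ cells and for the interaction. The cause was not tested. Signals below the array median limit what can be seen for 5 of the 9 genes.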
